A study of Rattus norvegicus with 16 samples.

Results

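The expression profile of shRNA3T, a pool of rat hepatoma H35 cells that received a plasmid against Pdrg1, was compared with that of CN-10, a clone that carries the negative control plasmid. The arrays were chosen by their titles, which gave 4 arrays of the pool and 4 of the clone, that is 8 of the 16 arrays of the series. The other 8 arrays belonged to the stable clones 3-44 (plasmid shRNA3, the one used for the pool) and 4-18 (plasmid shRNA4), with 4 arrays each. The question asked was which genes change when less Pdrg1 is made in hepatoma cells.

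H35 is a hepatoma line that keeps part of the programme of the hepatocyte, such as the secretion of plasma proteins, and divides in culture. Pdrg1 encodes a small protein of the prefoldin family, which binds proteins during their folding and assembly. A short hairpin RNA (shRNA) is cut by the cell into a small RNA that directs the destruction of a matching messenger. In a dividing cell the enzymes that copy DNA and the regulators of mitosis are made in waves, whereas resting hepatocytes make little of them.

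All cells were grown in DMEM with 10% fetal bovine serum and 2 mM glutamine. They were transfected with lipofectamine and, from 48 h later, selected with 1.8 mg/ml G418 for 2 weeks. The pool was collected after this step without cloning, and its transfection is given as transient. CN-10, 3-44 and 4-18 went on to 4 mg/ml G418 for another 2 weeks, and each is 1 clone picked out of many of its plasmid. The pool and CN-10 therefore differ in the hairpin, in cloning and in the strength and length of the selection, and the array data cannot tell these apart. No pool of the control plasmid was among the arrays. Each group also lay on a slide of its own, and a difference of slides cannot be told apart from one of groups. In RNA of whole cultures, fewer cells making a messenger and less of it per cell cannot be told apart either.

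Each array read the Cy3 signal of 1 sample at 42877 spots for genes, which belonged to 30367 probes and 26269 gene names. The spot intensity at the 75th percentile was 2617 to 3512 on the CN-10 arrays and 2594 to 3641 on those of shRNA3T. Between 66.75% and 70.6% of the spots were well above background in CN-10, and between 64.69% and 70.91% in shRNA3T, where replicate 1 was the lowest. No spot was saturated. Values are given as normalised log2 intensity, on which a difference of 1 is a doubling, and the median SD between replicates was 0.126 in CN-10 and 0.115 in shRNA3T. The correlation between an array of the pool and one of CN-10 lay between 0.986 and 0.991 across probes. A gene was called where it changed at least 2-fold with a Benjamini-Hochberg adjusted p under 0.05 in the limma fit, and n is 4 arrays per group unless stated. Of the 8 hepatocyte markers 7 were marked above background on every array of CN-10, of the pool or of both, and Alb, the gene of serum albumin, was among the brightest at 17.22 ± 0.63 (SD) in CN-10 and 17.30 ± 0.25 in shRNA3T. None of the markers of biliary, stellate, endothelial, macrophage or lymphoid cells was called, and 16 of these 36 markers were so marked. Their mean level did not exceed 7.63 on any of the 8 arrays for any of these 5 lists. At the adjusted p alone Cd14 and Col1a1 were higher in the pool, by 0.98 and 0.52, and Krt19, Des and Cd79a were lower, at -0.52, -0.98 and -0.34.

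The targeted gene was lower in the pool. Pdrg1 was read by a single probe at chromosome 3, 143353382 to 143353441 of the rn4 build, and its exon was not annotated here. It was 13.41, 13.88, 13.51 and 13.77 on the CN-10 arrays and 12.39, 12.90, 12.97 and 12.90 on those of shRNA3T. The groups did not overlap, and the pool held 44.5% less on the linear scale. Replicate 1 was the lowest array in both groups, and also in 3-44 at 11.89 and in 4-18 at 11.57. The difference was -0.85 ± 0.34 (SE), with an adjusted p of 0.143 in limma and 0.0286 in the two-sided exact permutation test, the smallest that 4 arrays against 4 allow. Pdrg1 was thus not called, and its adjusted p ranged from 0.000208, without replicate 1 of every group, to 0.547 over the alternative settings. The clone 3-44 stood at 12.65 ± 0.51, and the pool differed from it by 0.14 (limma adjusted p = 0.874). Mat1a and Mat2a encode the catalytic subunits of the methionine adenosyltransferases, which make S-adenosylmethionine. Mat1a, the form of the adult liver, was 10.62, 10.73, 11.08 and 10.34 in CN-10 and 11.95, 12.07 and 11.91 on the 3 arrays of shRNA3T with a usable spot. Its difference of 1.28 was called (limma adjusted p = 0.0238), but the call was lost under 10 of the alternatives. Mat2a differed by -0.34 at one probe (limma adjusted p = 0.123) and by 0.08 at another of like brightness (limma adjusted p = 0.948).

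Between shRNA3T and CN-10, 653 genes were called, of which 324 (1.23% of the gene names) were higher in the pool and 329 (1.25%) were lower. The change exceeded 4-fold in 30 genes that were higher and in 17 that were lower. The plot of all genes by level and difference shows that called genes were found at all but the lowest levels.

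**Figure D1:**
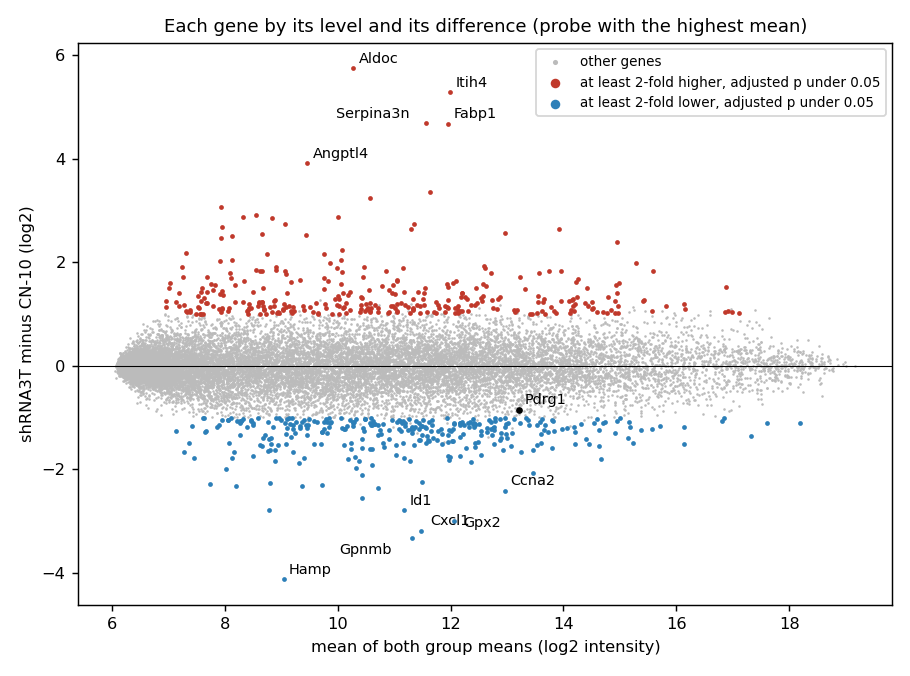
Difference of shRNA3T minus CN-10 (log2, vertical) against the mean of both group means (log2 intensity, horizontal), with 1 point per gene name drawn for its probe with the highest mean. Red and blue points passed the 2-fold limit and the adjusted p of 0.05, and Pdrg1 (black) lies at -0.85, inside the band of genes that did not.

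Among the 12 genes with the largest increase were Aldoc, Itih4, Serpina3n, Fabp1, Angptl4, Pzp, Insc, Mttp, Asgr1, Serpina6 and Serpinf2. Aldoc, the brain form of the glycolytic enzyme aldolase, went from 7.30, 7.15, 7.76 and 7.38 in CN-10 to 13.47, 13.03, 13.01 and 13.05 in shRNA3T. The groups were far apart, and the difference of 5.74 ± 0.16 (SE) is a 53.5-fold rise (limma adjusted p = 2.96e-11). A second, dimmer probe of Aldoc rose by 2.43 (limma adjusted p = 1.89e-08).

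Itih4, an acute phase protein of plasma, read 9.73, 8.94, 9.71 and 9.02 in CN-10 and 14.47, 14.05, 14.92 and 15.08 in the pool. Its rise was 38.9-fold (5.28 on the log2 scale, limma adjusted p = 2.41e-06). Serpina3n, a protease inhibitor that is induced in inflammation, stood at 9.23, 8.76, 9.63 and 9.28 against 13.51, 13.20, 14.28 and 14.64, a rise of 4.68 (limma adjusted p = 1.55e-06). In both genes the arrays of the pool spread more than those of Aldoc, and all lay above CN-10. Fabp1, the fatty acid binding protein of liver, was 9.45 to 9.72 in CN-10 and 14.06 to 14.59 in shRNA3T, a difference of 4.68 with an SE of 0.15 (limma adjusted p = 7.27e-11). Mttp, which loads lipid onto apolipoprotein B for secretion, rose by 2.92, and Asgr1, a subunit of the receptor that clears desialylated glycoproteins from blood, by 2.87. Serpina6, the corticosteroid carrier of plasma, rose by 2.87 (4.56 with the processed signal of the scanner software) from a level that was well above background on 3 of the 4 CN-10 arrays, and Serpinf2, the inhibitor of plasmin, by 2.74, while the protease trap Pzp rose by 3.24. Insc, an adaptor of the machinery that orients the mitotic spindle, rose by 3.06, and its probe was well above background on 1 of the 4 CN-10 arrays. With the processed signal its rise was 6.30, and those of Aldoc, Angptl4 and Mttp were 6.56, 4.70 and 3.96.

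The 12 genes with the largest decrease were Hamp, Gpnmb, Cxcl1, Gpx2, Id1, Cox6a2, Mx1, Ccna2, Tyms, Bgn, Tmem164 and Ly6d. Hamp encodes hepcidin, the liver hormone that blocks iron export, and was measured by a probe with 10 spots. It was 11.04, 10.89, 11.47 and 10.98 in CN-10 and lay between 6.92 and 7.03 on all 4 arrays of shRNA3T, a 17.4-fold fall (limma adjusted p = 7.27e-11), or -4.12 on the log2 scale, and -5.59 with the processed signal. These values lie near the dim end of the scale, and the probe was well above background on each array. Gpnmb, a membrane glycoprotein, differed by -3.32 ± 0.17 (SE). The neutrophil chemokine Cxcl1 read 13.17, 12.92, 13.43 and 12.77 in the clone and 9.82, 9.93, 10.05 and 9.77 in the pool, a difference of -3.18 (limma adjusted p = 3.5e-09). Gpx2, a glutathione peroxidase of epithelia, was 8.01-fold lower, and its other probe differed by -2.46, both called. Cox6a2, the muscle form of a subunit of cytochrome oxidase, differed by -2.78. Mx1, an interferon-induced GTPase that acts against viruses, was 11.95, 11.38 and 11.79 on the 3 usable CN-10 arrays and 8.83 to 9.38 in the pool. Bgn, a matrix proteoglycan, and Tmem164 each differed by -2.32. A dimmer probe of Bgn was not called, at -0.20, and that of Tmem164 did not rise well above background in the pool. With the processed signal Cox6a2 and Tmem164 differed by -3.41 and -3.59. The plot of these genes by array shows that no array of the pool reached into the range of CN-10.

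**Figure D2:**
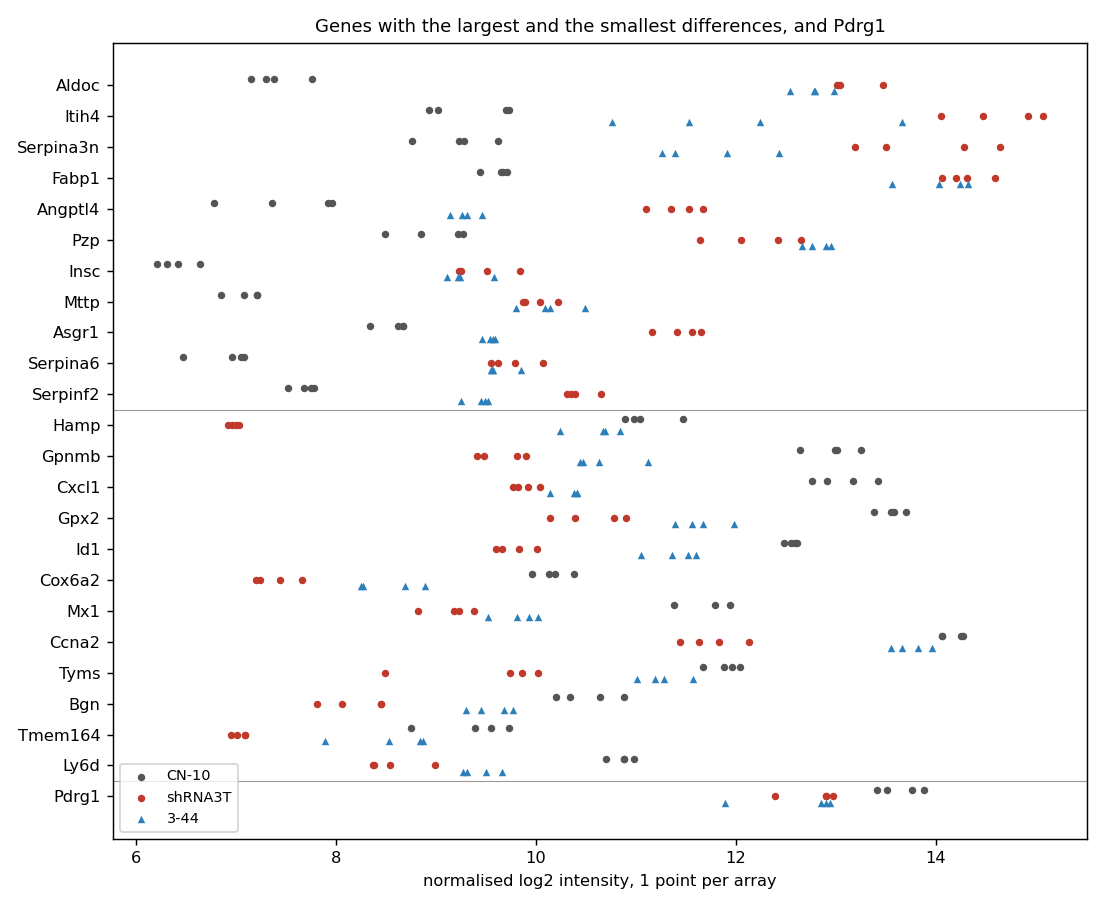
Normalised log2 intensity (horizontal) of named genes at both ends of the difference between shRNA3T and CN-10, and of Pdrg1, with 1 point per array for CN-10 (grey), shRNA3T (red) and the clone 3-44 (blue). Points of shRNA3T and CN-10 do not overlap for any of these genes, and those of 3-44 lie with the pool for Fabp1 but near CN-10 for Hamp.

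Genes were then read in groups, as 22 lists of pathways. Of the 36 cell cycle and DNA replication genes on the array, 20 were called lower in the pool and 0 higher, against 1.25% and 1.23% of all gene names. The median difference of the list was -1.03, against -0.01 over all genes, and 33 of the 36 members lay below 0. At the adjusted p alone, read on the probe with the highest mean, 24 were lower and 0 higher, where 7.04% of all genes were lower and 5.13% were higher. The members called ran from E2f1 at -1.03 to Ccna2 at -2.41.

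Among regulators of the cycle, Ccna2, the cyclin A of S phase and G2, was 14.28, 14.25, 14.07 and 14.06 in CN-10 and 11.45, 12.13, 11.83 and 11.63 in the pool. This is a 5.3-fold fall (limma adjusted p = 3.54e-08), and its other probe differed by -1.69. Ccnb1, the cyclin of mitosis, stood at 12.49, 12.59, 13.11 and 13.07 against 11.87, 11.82, 11.59 and 11.41, a difference of -1.14. The kinase Plk1 differed by -1.32, the phosphatase Cdc25b by -1.12 and Cdc20, an activator of the anaphase-promoting complex, by -1.11. The spindle checkpoint genes Bub1 and Mad2l1 differed by -1.73 and -1.21. Bub1 rested in part on replicate 1 of the pool, which read 10.34 where the other 3 arrays read 12.36, 12.12 and 11.85, and its call was lost under 8 of 30 alternatives. The transcription factors E2f1 and Foxm1, which drive genes of S phase and of mitosis, differed by -1.03 and -1.21. Cdk1, the kinase of mitosis, did not reach the fold limit, with a difference of -0.95 (limma adjusted p = 6.4e-06).

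Genes that copy DNA or supply its precursors were also among those called. Tyms, which makes thymidylate, was 12.04, 11.96, 11.89 and 11.67 in CN-10 and 8.49, 10.02, 9.87 and 9.74 in shRNA3T, with a difference of -2.36 (limma adjusted p = 2.69e-05). The array of replicate 1 was the lowest, and the other 3 also lay below all of CN-10. Both subunits of ribonucleotide reductase were called, Rrm1 at 3.15-fold and Rrm2 at 2.83-fold lower, the latter from 3 arrays of the pool. Of the subunits of the MCM helicase, which unwinds DNA at origins, Mcm3, Mcm4, Mcm5 and Mcm6 were called at -1.25, -1.39, -1.61 and -1.19, and Mcm7 was not, at -0.60 (limma adjusted p = 0.0693). Pcna, the sliding clamp of the polymerases, differed by -1.13 and Top2a, the topoisomerase that untangles replicated DNA, by -1.59. Over these 20 genes the lowest array of the pool was replicate 4 for 12 genes and replicate 1 for 6. The calls of E2f1 and Pcna were lost under 4 and 6 of 30 alternatives, and the count of members called lower stayed between 16 and 25 under all alternatives run.

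The members not called included regulators of another kind. The D cyclins, which answer to growth signals, differed little, with Ccnd1, Ccnd2 and Ccnd3 at -0.03, 0.00 and -0.13. The inhibitors Cdkn1b, Cdkn2a and Cdkn2b differed by -0.11, 0.06 and -0.04, and Cdkn1a, a p53 target that halts the cycle, by 0.14 (limma adjusted p = 0.701). None of the 21 p53 targets was called in either direction, and with 1.23% and 1.25% of all gene names called a list of this size holds under 1 such gene. Their median was 0.06.

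Cycle genes were also called lower when the pool was set against 3-44, a comparison that leaves out the CN-10 arrays but shares those of the pool. There 20 of the 36 members were called lower and 0 higher, and the median was -1.05, whereas 0.986% of all gene names were called lower and 1.22% higher. Ccna2 was lower by 1.99 and Tyms by 1.74 on the log2 scale than in 3-44. The plot of both differences gives each gene with its error. Against 4-18, 5 members were called lower and 1 higher, with 1.99% and 2.87% of all genes. That comparison moved with the scaling of the arrays.

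**Figure D3:**
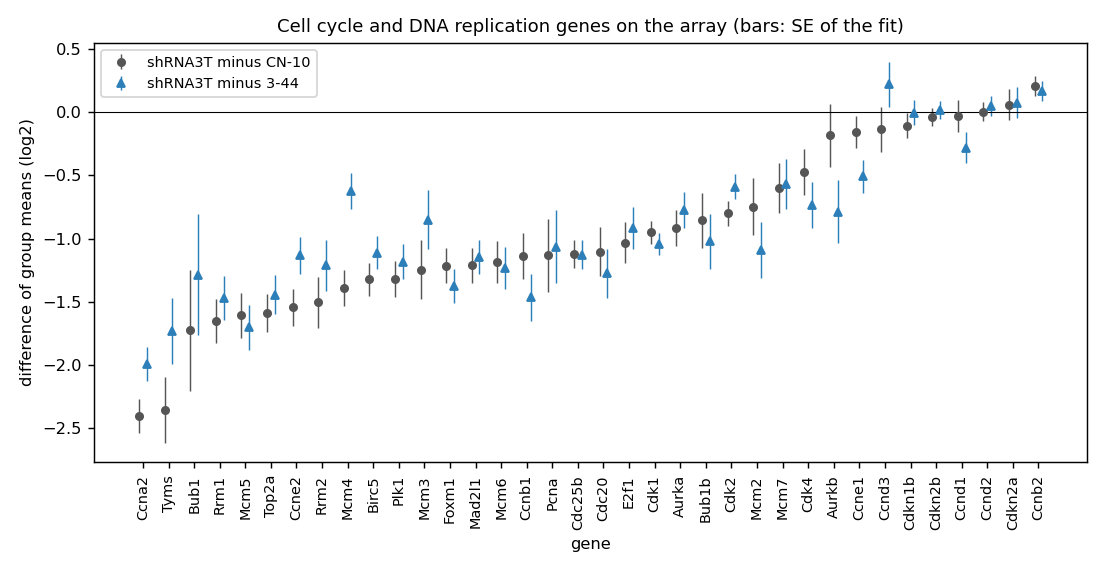
Difference of shRNA3T minus CN-10 (grey circles) and minus 3-44 (blue triangles) in log2 units for the 36 cell cycle and DNA replication genes on the array, with the SE of the fit as bars. Both sets of points lie below 0 for most genes, from -2.41 for Ccna2 against CN-10, and near 0 for the D cyclins and the inhibitors at the right.

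Many cell cycle genes carry in their promoters the letters CCAAT, read by the factor NF-Y, and TTTGAA, known as the cell cycle homology region. These letters were chosen for a search after the values had been seen. In the 250 bases before the start of the gene (RefSeq, build GRCr8, both strands), CCAAT was present in 11 of the 14 called members with a promoter in the table and in 6 of the 13 members that were not called, and in 34.3% of all 27457 promoters. TTTGAA was present in 3 of the 14 and 4 of the 13, and in 16.03% of all. The promoters of Cdc20 (chr5:137255800-137256049, minus strand) and Ccnb1 (chr2:33655226-33655475, minus strand) are shown as examples picked from the called members. Both hold CCAAT more than once, as do Top2a, Mcm3, Mcm5 and Mcm6, and Cdc20 is 1 of the 3 with TTTGAA. The capitals mark CCAAT and TTTGAA on either strand. In Cdc20 the CCAAT matches start 86 and 41 bases before the gene and the TTTGAA match 51 bases before it, and in Ccnb1 the CCAAT matches start 82 and 50 bases before it.
Cdc20: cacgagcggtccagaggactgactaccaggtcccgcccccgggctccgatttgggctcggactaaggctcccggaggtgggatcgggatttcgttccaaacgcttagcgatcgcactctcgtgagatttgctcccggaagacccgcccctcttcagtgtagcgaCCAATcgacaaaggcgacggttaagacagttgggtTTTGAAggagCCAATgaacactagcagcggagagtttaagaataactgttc
Ccnb1: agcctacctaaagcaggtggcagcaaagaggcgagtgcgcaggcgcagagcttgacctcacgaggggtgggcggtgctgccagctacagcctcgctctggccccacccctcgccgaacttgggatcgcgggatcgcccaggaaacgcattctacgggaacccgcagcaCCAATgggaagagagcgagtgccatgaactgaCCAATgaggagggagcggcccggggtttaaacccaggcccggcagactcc

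Among proteins that the hepatocyte secretes into plasma, 10 of the 31 on the list were called higher in the pool, 1 was lower and 20 were not called, against 1.23% and 1.25% of all gene names called higher and lower, and the median was 0.55. The 10 became 5 with the authors' unscaled values. Ttr, the carrier of thyroid hormone and retinol, was 13.10, 13.96 and 14.22 on the 3 usable CN-10 arrays and 15.85, 16.27, 15.94 and 16.52 in the pool, a 5.22-fold rise (limma adjusted p = 0.000319). Fga, which encodes the alpha chain of fibrinogen, read 9.27, 10.08, 10.19 and 10.38 against 12.39, 12.30, 12.74 and 13.08, a rise of 2.65 (limma adjusted p = 3.43e-05). Its partner Fgb rose by 1.16. The protease inhibitors Serpina1 and Serpinc1, which are alpha-1-antitrypsin and antithrombin, rose 2.82-fold and 3.48-fold. Vtn, the adhesive plasma protein vitronectin, was not well above background on any CN-10 array and was so on all 4 of the pool, and was at least 2.74-fold higher there (limma adjusted p = 4.49e-05). Hp, Ambp and Itih3 rose by 1.10, 1.01 and 1.12, and the calls of Hp, Ambp and Serpinc1 were lost under 9, 11 and 6 of 30 alternatives. Plg, the gene of plasminogen, was the 1 member called lower, at 13.39, 13.37, 13.25 and 13.28 against 12.15, 12.11, 12.07 and 12.08.

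Of the members that were not called the brightest were Apoe, Alb and Ahsg, which differed by 0.19, 0.08 and -0.48, and their arrays overlapped. Afp, the albumin-like protein of the fetal liver, differed by -0.87 (limma adjusted p = 0.000108) and did not reach the fold limit. None of the 21 transcription factors of the hepatocyte lineage was called, and 6 of them were higher and 0 lower at the adjusted p alone, against 5.13% and 7.04% of all genes. Onecut1 stood at 12.68, 12.59, 12.31 and 12.29 in CN-10 and 13.67, 13.29, 13.30 and 13.23 in the pool, a difference of 0.90 that did not reach the fold limit.

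Genes of fatty acid oxidation and ketone synthesis had 7 of 28 members called higher and 0 lower, against 1.23% and 1.25% of all gene names, with a median of 0.41. The acyl-CoA dehydrogenases Acadm, Acadvl and Acads, each for another chain length, rose by 1.11, 1.06 and 1.25. Acadm had the tightest groups of these, at 11.18 to 11.29 and 12.28 to 12.43. Acaa1a, the thiolase of peroxisomes, rose by 1.27, Eci1 by 1.33 and the fatty acid hydroxylase Cyp4a1 by 1.57. Cyp4a1 has close relatives, and the probe may read more than 1 of them.

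Of the enzymes of sugar use and production 5 of 27 were called higher and 0 lower, against 1.23% and 1.25% of all, with a median of 0.27. Besides Aldoc they included Pklr, the liver pyruvate kinase, at 1.02 (a call lost under 6 of 30 alternatives), and the gluconeogenic enzymes G6pc and Pck1. G6pc, which releases free glucose, stood at 12.53, 12.56, 12.54 and 12.73 in CN-10 and 15.14, 15.19, 15.29 and 15.31 in shRNA3T, a 6.25-fold rise (limma adjusted p = 2.96e-11). Pck1, which turns oxaloacetate into phosphoenolpyruvate, read 11.69 ± 0.48 (SD) against 14.25 ± 0.21, a rise of 2.55 with no overlap. Of the members not called the brightest were the glycolytic enzymes Eno1, Pgam1 and Gapdh, which differed by -0.04, -0.08 and 0.01, and their groups overlapped.

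Genes that are induced through the hypoxia-inducible factor had the highest median of the 22 lists, 0.74. Of the 27 members 7 were called higher and 0 lower, against 1.23% and 1.25% of all gene names, and 15 were higher at the adjusted p alone, against 5.13%. Angptl4, an inhibitor of lipoprotein lipase, was 7.96, 6.78, 7.36 and 7.92 in CN-10 and 11.53, 11.11, 11.35 and 11.67 in the pool, a rise of 3.91 (limma adjusted p = 1.89e-08). It is also a target of fatty acids and of glucocorticoids. Adm, a peptide that widens vessels, read 9.84, 10.11, 9.76 and 10.03 against 11.79, 11.80, 11.65 and 11.84, a rise of 1.84 (limma adjusted p = 0.0016). The mitophagy receptors Bnip3 and Bnip3l rose by 1.27 and 1.07, and the prolyl hydroxylase Egln1, which marks the factor for destruction, by 1.10. Ndrg1 and the histone demethylase Kdm3a rose by 1.58 and 1.15. Vegfa, the growth factor of vessels, differed by 0.63 and was not called (limma adjusted p = 0.0516).

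The core letters of the hypoxia response element, ACGTG, were found in the 250 bases before the start in 2 of the 5 called members with a promoter in the table and in 5 of the 16 that were not called, and in 16.9% of all promoters. Angptl4 (chr7:15258682-15258931, minus strand) and Bnip3 (chr1:203154963-203155212, minus strand) are the 2 genes, shown here with the match in capitals. In Bnip3 the matches of both strands overlap, so that 6 letters are marked 99 bases before the gene.
Angptl4: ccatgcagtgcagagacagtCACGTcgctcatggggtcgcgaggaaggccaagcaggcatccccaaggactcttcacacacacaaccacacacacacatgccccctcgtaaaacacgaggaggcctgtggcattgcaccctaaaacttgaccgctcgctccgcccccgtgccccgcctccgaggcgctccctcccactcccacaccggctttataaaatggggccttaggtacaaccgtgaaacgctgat
Bnip3: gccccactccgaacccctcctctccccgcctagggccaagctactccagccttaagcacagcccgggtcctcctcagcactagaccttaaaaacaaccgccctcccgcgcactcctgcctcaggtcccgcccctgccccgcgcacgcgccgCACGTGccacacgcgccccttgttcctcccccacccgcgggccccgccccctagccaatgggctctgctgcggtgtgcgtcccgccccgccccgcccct

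**Figure D4:**
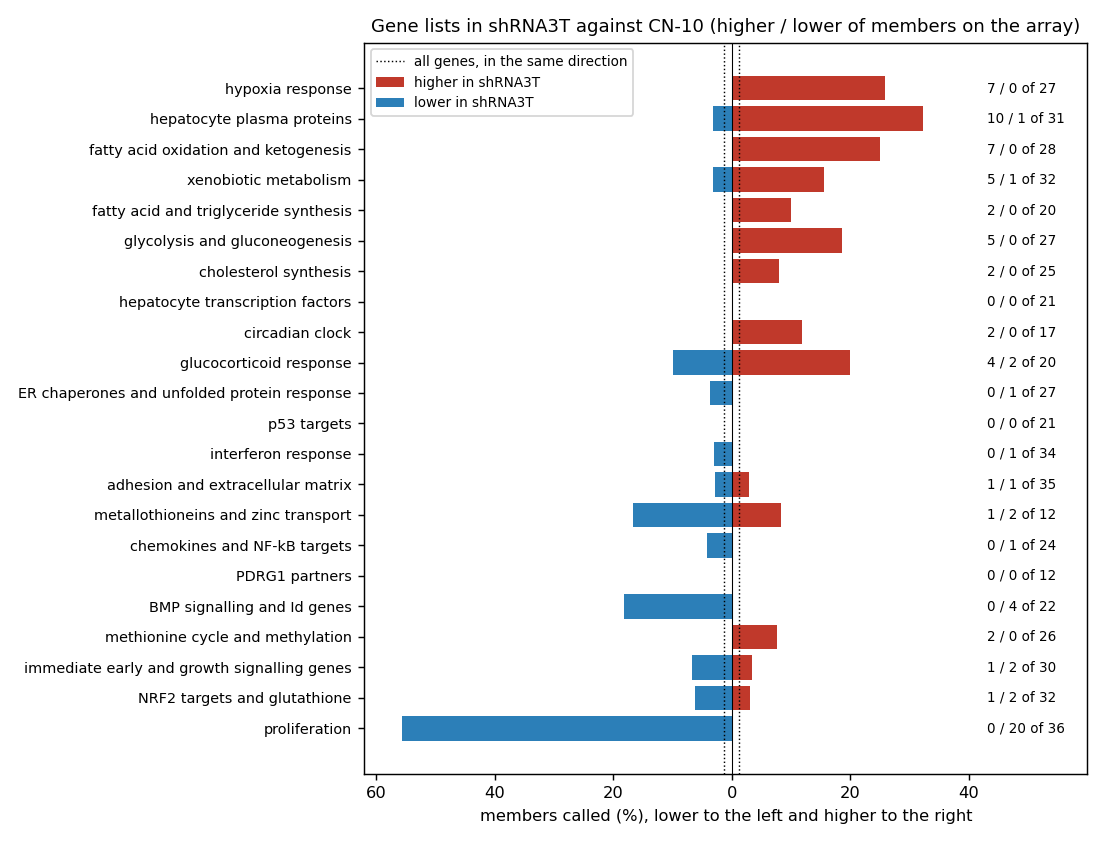
Share of the members on the array that were called higher (red, to the right) or lower (blue, to the left) in shRNA3T than in CN-10 for each of the 22 lists, ordered by their median difference, with the counts at the right. The dotted lines mark the shares over all gene names, 1.23% and 1.25%, and proliferation stands out with 20 of 36 members lower.

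Bone morphogenetic protein (BMP) is a signal that acts through SMAD proteins. Of the 22 genes of this pathway 4 were called lower and 0 higher, against 1.25% and 1.23% of all gene names. The other 18 were not called, 10 of the 22 were not well above background throughout either group, and the median over the list was -0.09. Besides Hamp, a BMP target in liver, the genes called were Id1, Id2 and Smad6. Id1, an inhibitor of differentiation factors, was 12.59, 12.62, 12.56 and 12.48 in CN-10 and 9.84, 9.60, 10.01 and 9.66 in the pool, a 6.88-fold fall (limma adjusted p = 4.04e-08). Smad6, which restrains the same pathway, read 9.61, 9.44, 9.42 and 9.02 against 7.89, 7.85, 7.89 and 7.80, a difference of -1.52 (limma adjusted p = 7.3e-06). Id2 differed by -1.18 (limma adjusted p = 0.0284), and its call was lost under 8 of 30 alternatives. The receptor Bmpr1a and the transducer Smad1 differed by 0.03 and 0.10, and their arrays overlapped.

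Further lists are read against the same 1.23% of all gene names called higher and 1.25% called lower, which is under 1 gene in each direction for a list of these sizes. Of 32 genes of xenobiotic metabolism 5 were called higher and 1 lower. Cyp27a1, which oxidises cholesterol on the way to bile acids, rose by 1.47, and Cyp2d4, Cyp3a9, Ugt2b1 and the sulfotransferase Sult1b1 by 1.81, 1.34, 1.64 and 1.57, while Cyp1a2 fell, at 8.60, 8.57, 8.63 and 8.53 against 7.56, 7.47, 7.56 and 7.56. Several of these genes belong to families of near-identical copies that a probe may not separate. Among 20 genes induced by glucocorticoid 4 were called higher (Angptl4, Pck1, Igfbp1 and Cps1) and 2 lower (Sgk1 and Errfi1), and the latter calls were lost under 7 and 4 of 30 alternatives, so that 1 was left without some single arrays. Igfbp1, which binds insulin-like growth factors, was 14.49, 14.08, 14.40 and 14.17 in CN-10 and 16.50, 16.18, 16.26 and 16.15 in the pool. Tsc22d3, a glucocorticoid target with a well characterised response, differed by -0.43 (limma adjusted p = 0.334). Of the 17 clock genes Dbp and Tef, a pair of output factors, rose by 1.18 each, and 0 were called lower. Sterol synthesis and fat synthesis had 2 members each called higher and 0 lower, of 25 and 20, namely Fdps, Insig1, Lpin1 and Acss2. The calls of Fdps, Insig1 and Lpin1 were lost under 3, 4 and 3 of 30 alternatives. Each of the 2 counts fell to 1 without some single arrays.

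Of 12 genes of metallothioneins and zinc transport 2 were called lower and 1 higher, against 1.25% and 1.23% of all gene names. The metallothioneins Mt1a and Mt2A, which bind zinc and copper, were both lower. Mt2A stood at 14.04, 13.90, 14.12 and 13.82 in CN-10 and 12.96, 12.85, 12.73 and 12.75 in the pool (limma adjusted p = 6.45e-06), and Mt1a differed by -1.16. The zinc transporter Slc30a2 rose by 1.41. The core of the metal response element, TGCACNC, was found before the start of these 3 called genes and of 4 of the 6 other members with a promoter, and in 10.2% of all promoters. The promoter of Mt2A (chr19:10838709-10838958, minus strand) is shown with its 2 matches in capitals, on the opposite strand.
Mt2A: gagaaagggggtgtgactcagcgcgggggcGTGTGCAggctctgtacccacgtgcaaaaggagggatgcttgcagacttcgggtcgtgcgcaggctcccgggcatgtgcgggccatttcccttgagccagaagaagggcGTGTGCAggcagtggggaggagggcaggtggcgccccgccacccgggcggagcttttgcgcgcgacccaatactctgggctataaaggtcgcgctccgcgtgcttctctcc

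Of 32 genes of the NRF2 response and glutathione 2 were called lower, Gpx2 and the quinone reductase Nqo1, and 1 higher, Gsta4, against 1.25% and 1.23% of all gene names, while the median was -0.25. At the adjusted p alone 11 were lower and 3 higher, against 7.04% and 5.13%. The call of Gsta4 (limma adjusted p = 0.0418) was lost under 15 of 30 alternatives, among them 10 of the 16 that left out 1 array. Nqo1 was 11.19, 11.01, 11.17 and 10.99 in CN-10 and 9.77, 9.93, 9.84 and 9.82 in the pool. The antioxidant element core, TGACNNNGC, was present before the start of 1 of these 3 genes, Gpx2, and of 6 of the 26 other members with a promoter, and in 10.2% of all promoters. In Gpx2 (chr6:101230034-101230283, minus strand) the match lies on the opposite strand and starts 13 bases before the gene.
Gpx2: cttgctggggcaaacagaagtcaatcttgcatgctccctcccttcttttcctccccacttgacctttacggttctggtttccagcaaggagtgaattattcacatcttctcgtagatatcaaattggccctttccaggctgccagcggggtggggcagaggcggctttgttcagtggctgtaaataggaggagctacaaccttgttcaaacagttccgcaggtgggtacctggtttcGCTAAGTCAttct

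Mx1 was the 1 called member among 34 interferon genes and Cxcl1 the 1 among 24 chemokines and NF-kB targets, both lower, where 1.25% of all gene names were called lower, so these counts lie near that of all genes. At the adjusted p alone 7.04% of all genes were lower and 5.13% higher. By that limit 4 interferon genes were lower and 2 higher, and 5 chemokines and NF-kB targets were lower and 2 higher. Sensors and targets of interferon such as Oas1b, Bst2 and Mx2 differed by 0.21, 0.45 and 0.26, and none of these 3 was called. Sdf2l1, a partner of chaperones in the endoplasmic reticulum, was the 1 called member of 27, at -1.67. With the adjusted p alone 5 of the 27 were lower and 0 higher. Of 30 immediate early and growth signalling genes Nr4a1 and Cyr61 were lower, at -1.48 and -1.05, and Cyr61 lost its call without shRNA3T replicate 4. Btg2, which slows division, was higher at 1.02, a call lost under 10 of 30 alternatives. With the adjusted p alone 7 of the 30 were lower and 2 higher. Myc differed by -0.29. Of 35 genes of adhesion and matrix the integrin Itga1 was higher at 1.63 and the guidance cue Sema3c lower at -1.06. With the adjusted p alone 2 of the 35 were higher and 3 lower. Of 26 genes of the methionine cycle and methylation 2 were called higher and 0 lower, and the median was -0.14. At the adjusted p alone 3 of the 26 were higher and 6 lower, against 5.13% and 7.04% of all genes. Mat2b, the regulatory subunit of the adenosyltransferase, rose by 1.03 (limma adjusted p = 0.0296) beside Mat1a, and lost its call under 11 of 30 alternatives, 6 of which left out 1 array. None of the 12 prefoldin and R2TP partners of PDRG1 was called, against 1.23% and 1.25% of all gene names called higher and lower. At the adjusted p alone Ruvbl1 and Polr2e were lower, at -0.67 and -0.48 (limma adjusted p = 0.00141 and 0.0158), and Pfdn5 was higher at 0.30 (limma adjusted p = 0.0489). Over all genes 7.04% were lower and 5.13% higher at that limit.

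**Figure D5:**
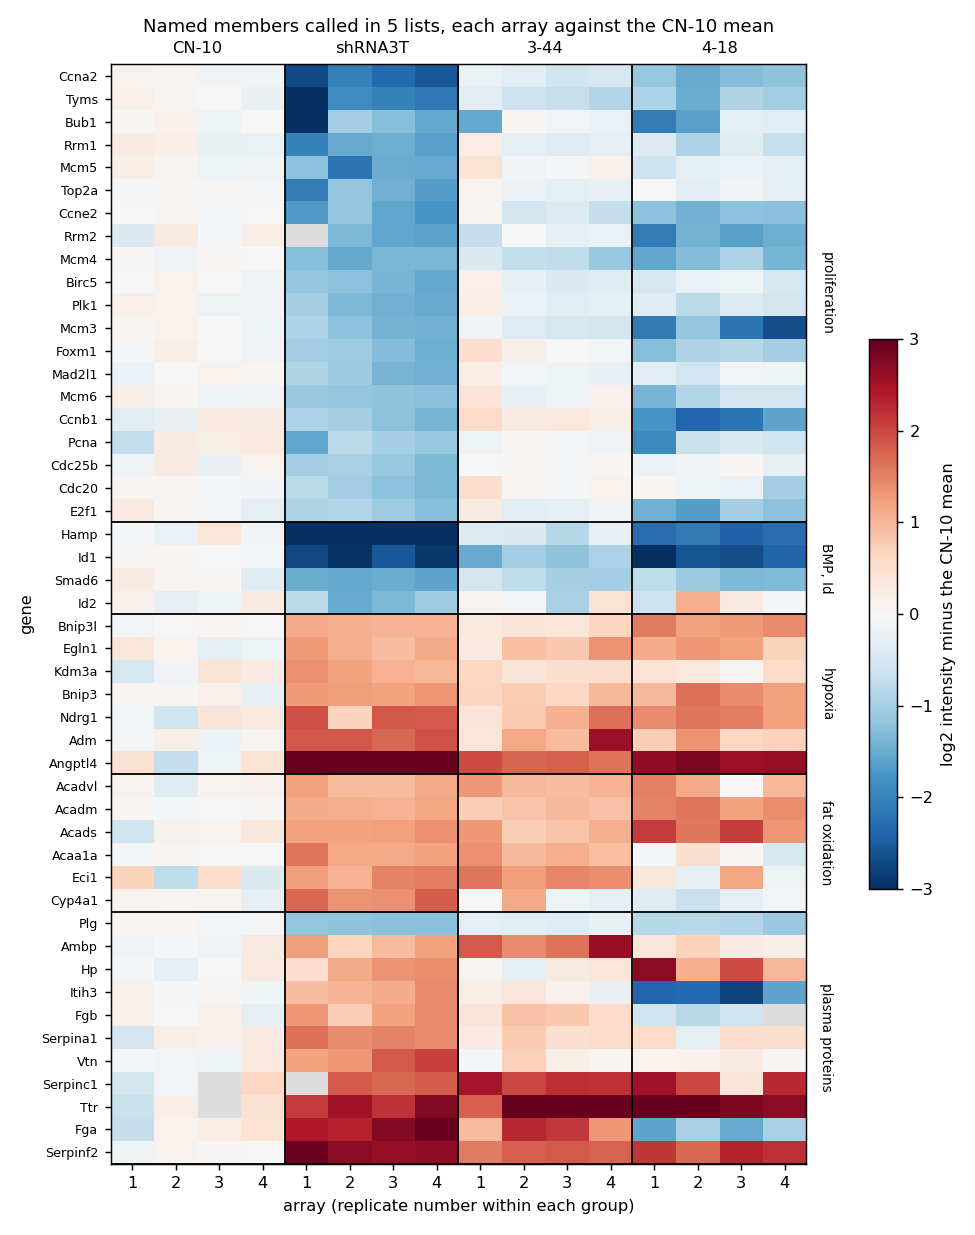
Log2 intensity of each array minus the mean of CN-10 (colour, blue lower and red higher, ending at -3 and 3) for named members called in 5 lists (rows) on the 16 arrays (columns, 4 groups of 4), with spots set aside in grey. Cell cycle genes are blue on the 4 arrays of shRNA3T and paler on those of 3-44. On the 4-18 arrays Ccna2 and Tyms averaged 12.88 and 10.80, also below CN-10 at 14.16 and 11.89. Hamp is darkest in the pool at 6.92 to 7.03.

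The pool was also set against 3-44, the clone of the same plasmid, to see which of its differences do not rest on CN-10. Here 580 genes were called, 321 higher and 259 lower in the pool. The largest were Itih4 at 2.58, C5 at 2.46, Chdh at 2.45, Tnfrsf9 at 2.36 and Sult2al1 at 2.33. C5, a complement component, was 10.10, 10.26, 10.20 and 10.22 in CN-10, 11.23 ± 0.19 (SD) in the pool and 8.56, 9.01, 8.79 and 8.71 in 3-44. The pool thus lay above CN-10 and 3-44, while 4-18 stood at 12.33 ± 0.18 (SD). Chdh, which oxidises choline, read 9.59, 9.47, 9.92 and 10.36 in the pool against 7.36, 7.90, 7.40 and 6.88 in 3-44, with CN-10 at 7.67 ± 0.15 (SD). Tnfrsf9, a receptor of the tumour necrosis factor family, was 2.47 higher than in CN-10 as well.

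At the other end were Hamp at -3.63, Sftpc at -2.38, Dapk2 at -2.20, Hist1h4b at -2.16 and Apoa1 at -2.15. Hamp was 10.69, 10.67, 10.24 and 10.85 in 3-44, close to CN-10 and far above the pool. Sftpc, a surfactant protein of the lung, and Apoa1, the main protein of high-density lipoprotein, did not differ from CN-10 beyond their spread, and the gap came from higher values in 3-44. Hist1h4b, a histone gene with near-identical copies, was 13.18, 12.53, 12.39 and 13.01 in 3-44 and 10.54, 10.59, 10.69 and 10.65 in the pool. Dapk2, a calmodulin-dependent kinase, was lower in the pool than in CN-10 or 3-44.

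Of all gene names 1.22% were called higher and 0.986% lower than in 3-44. The 24 genes at both ends of the difference to CN-10 were picked by values of the pool arrays, which this comparison shares. Of these 24 genes, 13 were also called between the pool and 3-44. Aldoc, Fabp1 and Mttp were not among them, at 0.36, 0.25 and -0.13 (limma adjusted p = 0.187, 0.359 and 0.705). Angptl4 was 9.46, 9.27, 9.31 and 9.15 in 3-44, between CN-10 and the pool, and Asgr1 likewise at 9.57, 9.54, 9.60 and 9.46. For the plasma proteins 2 members were called higher and 3 lower than in 3-44, against 1.22% and 0.986% of all gene names, with a median of 0.01, and for the hypoxia list 2 were higher and 0 lower with a median of 0.22. Against 4-18, 1277 genes were called, and the pool was higher in 755 and lower in 522. A scaling to the 75th percentile turned this into 580 higher and 13314 lower, so no gene is described from it. Hamp was the only one of the 24 genes lower by more than 8-fold both than in CN-10 and than in 3-44.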

How the data were processed

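RNA of 16 cultures was hybridised to 1-color Agilent rat 4x44K arrays, 4 biological replicates per group, and groups were taken from the sample titles. Per the labels the scans were read in Feature Extraction 10.7.3.1, and the deposited intensity values of spots and local backgrounds are linear and not normalised. The table of values that the authors also deposited had lost its decimal points. With these put back it equals log2 of the median spot signal after normexp correction, to within 4e-11, with no scaling between arrays, and it served as an alternative.

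Background was corrected with normexp (offset 50) in limma 3.58.1 (R 4.3.3), arrays were quantile normalised on the log2 scale, control spots and outlier spots marked by the scanner software were dropped, and repeat spots of 1 probe were averaged. The limma model gave each group its mean, took in all 16 arrays and was moderated by empirical Bayes. P-values were adjusted over all probes by Benjamini and Hochberg, the limit was 0.05 with a fold of 2, and genes were counted by name. A probe was taken as well above background where most of its spots carried that mark. Where no array of a group had it, the fold is a lower bound against the lowest signal that did. The limma fit and the limits were tested on 29317 simulated probes for shRNA3T against CN-10. There 94 of 100 changes of 1.5 and 100 of 100 of 2.5 (log2) were recovered and 1 probe was wrongly called. The simulated noise was independent between arrays, with no effect of slide or replicate number. Background correction, scaling and averaging of spots were not part of this test.

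Named genes are Pdrg1, Mat1a and Mat2a, the 12 that rose most and the 12 that fell most among genes called and marked above background throughout 1 group, 5 and 5 likewise against 3-44, and of each list the members called and the brightest of the others. Some genes that these rules take are not reported here. D cyclins, cycle inhibitors, Afp and the markers of other cells called at the adjusted p alone were added after their values were seen. The comparison, lists and rules were chosen with earlier results of these data known. Of the 30367 probes, 18006 matched the RefSeq gene table by accession, 14580 of them with an unchanged symbol, and the names of the array were kept. Promoters came from RefSeq (GRCr8). The number of arrays limits the precision. Replicate numbers were also array positions on the slides, and deviations of equally numbered pool and CN-10 arrays correlated at 0.0588 to 0.196. The gene test of the methods was followed, and pathway terms were not analysed here.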

Additional observations from a re-analysis of the deposited data

Results flagged for a closer look

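In 5 of 71 groups of 4 values, all from CN-10 or shRNA3T, 1 array lay far from the other 3 by Dixon's criterion, and chance gives about 5%. The clones 3-44 and 4-18 were not searched. In shRNA3T replicate 1 was low for Pdrg1, at 12.39 where the others averaged 12.92, and high for Aldoc, at 13.47 against 13.03. Replicate 1 was the lowest for Pdrg1 in all 4 groups, at 13.41 in CN-10, 11.89 in 3-44, where the others read 12.86 to 12.95, and 11.57 in 4-18, where they read 13.25 to 13.34. The replicate 1 array of shRNA3T had 64.69% of its spots well above background, where the other 3 averaged 70.5%. Without replicate 1 of every group, chosen after seeing the data, Pdrg1 differed by -0.79 between shRNA3T and CN-10, with a limma adjusted p of 0.000208. Asgr1 was low in CN-10 replicate 2, at 8.34 against 8.65, and C5 was high in shRNA3T replicate 4, at 11.5 against 11.13.

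Both groups that carry the shRNA3 plasmid can be set against each other within the fit. For 13 of the 24 genes with the largest or smallest difference to CN-10, the pool and 3-44 differed by the called limma contrast. Over all gene names 1.22% were called higher and 0.986% lower there. The 24 genes were picked with the same pool arrays that enter this contrast. The pool was higher for Itih4 by 2.58, Serpina3n by 2.15, Angptl4 by 2.12 and Asgr1 by 1.91. It was lower for Hamp (-3.63), Ccna2 (-1.99), Tyms (-1.74), Id1 (-1.61), Tmem164 (-1.50), Bgn (-1.36), Cox6a2 (-1.14), Gpx2 (-1.10) and Gpnmb (-1.01). The part of cloning, selection and slide in these differences cannot be told apart.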

How the results depend on the processing

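The 653 genes called against CN-10 became 1191 with the processed signal of the scanner software, 401 with the authors' unscaled values, 2084 at a 1.5-fold limit and 3408 with no fold limit. Against 3-44 the 580 became 1021, 349 (242 higher), 1809 and 3093 in the same order. Against 4-18 the 1277 became 3025, 2853 (2709 higher and 144 lower), 3624 and 5737, and 13894 (580 higher and 13314 lower) with arrays scaled to the 75th percentile, which moved the median of all probes to -0.97. The spot intensity at the 75th percentile was 1614 to 1946 on the 4-18 arrays and 2594 to 3641 on those of the pool. The 4-18 arrays were also scanned on another day than the other groups. The cause was not tested. Leaving out 1 array at a time gave 586 to 710 genes against CN-10, 511 to 620 against 3-44 and 1228 to 1511 against 4-18, and -0.93 to -0.72 for Pdrg1. Pdrg1 reached 2-fold in no setting, and its adjusted p was 0.00639 with only the 8 arrays compared, 0.00777 with array weights, 0.0413 with the processed signal, 0.0183 with the replicate number as a block, 0.0240 without the 4-18 arrays (chosen after seeing the data), 0.000208 without replicate 1 of every group (likewise) and 0.0147 to 0.300 with 1 array left out, where it was under 0.05 without 4-18 replicate 1 alone.

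The replicate block gave 661, 601 and 1300 genes in the 3 comparisons and changed no call of a named gene other than Mat1a. Each pool array correlated best with the CN-10 array of its own number, a hint from the data. The number was also the position on the slide, and whether it marks cultures handled together is not stated. Of 728 values of 26 named genes under alternatives 718 kept direction and call, 10 lost the call (all Mat1a, 1.05 to 1.30 among those not leaving out an array) and 0 reversed. Mat1a lost its call without any 1 of CN-10 replicates 1, 2 and 4 or shRNA3T replicates 2, 3 and 4. Of 1320 counts over lists 1159 stayed within 1.5 times. With the authors' unscaled values the plasma proteins called higher fell from 10 to 5.

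Of 86 list members called against CN-10, 66 kept the call whichever array was left out and 53 under all alternatives. The other 20 lost it, namely Acadvl without CN-10 replicate 2, Egln1 without CN-10 replicate 3, Insig1 and Kdm3a without CN-10 replicate 1, Errfi1 without shRNA3T replicate 1, Cyr61 and Lpin1 without shRNA3T replicate 4, and E2f1 without either CN-10 replicate 1 or shRNA3T replicate 4. Pklr and Serpinc1 lost it on leaving out any of 3 arrays, Pcna of 4, Ambp and Sgk1 of 5, Btg2, Bub1, Hp, Id2, Mat1a and Mat2b of 6 and Gsta4 of 10. With the processed signal the differences of 8 named genes grew by over 1.5 times in fold, to 6.30 for Insc, 4.56 for Serpina6, 3.96 for Mttp, 4.70 for Angptl4, 6.56 for Aldoc, -5.59 for Hamp, -3.59 for Tmem164 and -3.41 for Cox6a2.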
